A study of Homo sapiens with 12 samples.

Results

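The genes described here are the mitochondrially encoded ones: every symbol in the count table that starts with MT-. The table held 32 of them among 36137 gene symbols, namely 13 mRNAs, 2 rRNAs and 17 tRNAs, while GENCODE release 29 places 37 genes on the human mitochondrial genome. The tRNA genes MT-TQ, MT-TA, MT-TN, MT-TS1 and MT-TK, 4 of them on the minus strand, are not analysed here. The filter on low counts left 20 members for testing: all 13 mRNAs, both rRNAs, and the tRNAs MT-TC, MT-TY, MT-TP, MT-TL1 and MT-TF. The other 12 members, all tRNAs, had 2 (MT-TW) to 79 (MT-TG) counts summed over the 12 libraries. MT-TG lay just outside the filter and MT-TF, with 108 counts in all, just inside it.

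The libraries came from LNCaP, an androgen-sensitive prostate cancer line first grown from a lymph node. Cells received siRNA against PXN (paxillin, an adaptor protein of focal adhesions) or a non-specific siRNA for 48 h. After serum starvation for 12 h they were given 2.5 nM dihydrotestosterone (DHT, an androgen) or the ethanol vehicle for 24 h. This made 4 groups of 3 libraries: PXN siRNA with DHT, PXN siRNA with vehicle, non-specific siRNA with DHT, and non-specific siRNA with vehicle. All groups were transfected and starved alike. The design asks what loss of paxillin does in cells with and without androgen. The labels do not say whether replicates were separate cultures, so p-values measure the spread between these libraries, which may be technical.

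The mitochondrial genome is a small circular DNA. It encodes subunits of respiratory complexes I, III, IV and V together with the rRNAs and tRNAs of the mitochondrial ribosome, and nuclear genes supply every other mitochondrial protein. Each strand is transcribed as a long precursor from which tRNAs are cut out, releasing the rRNAs and mRNAs between them. The libraries were made with a stranded mRNA kit that selects poly(A) RNA, which mature tRNAs largely lack. A change in the amount of a mitochondrial RNA and a change in its poly(A) capture cannot be told apart here. In bulk samples fewer cells of a type and less RNA per cell cannot be told apart either.

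3 tRNAs encoded on the minus strand are printed because they carried the tRNA changes. The anticodon stands in capitals, 5′ to 3′, from the GENCODE 29 transcripts on GRCh38. MT-TC (tRNA-Cys, chrM:5761-5826) and MT-TY (tRNA-Tyr, chrM:5826-5891) lie side by side and share 1 base, and MT-TP (tRNA-Pro, chrM:15956-16023) is the last gene on the map.
MT-TC: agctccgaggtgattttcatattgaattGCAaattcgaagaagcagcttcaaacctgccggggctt
MT-TY: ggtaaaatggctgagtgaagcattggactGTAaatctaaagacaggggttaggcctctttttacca
MT-TP: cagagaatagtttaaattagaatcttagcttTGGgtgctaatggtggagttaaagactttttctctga

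PXN itself was lower in every library given its siRNA. Its level was 19.96, 18.1 and 16.6 CPM (counts scaled to 1000000 per library) with PXN siRNA and DHT and 15.2, 21.2 and 14.9 CPM with PXN siRNA and vehicle. It was 113, 99.7 and 104 CPM with non-specific siRNA and DHT and 112, 106 and 108 CPM with non-specific siRNA and vehicle. The 12 libraries held 34321000 to 38633456 counts, and scaling factors were 1.02 to 1.06 with PXN siRNA and 0.944 to 0.972 with non-specific siRNA. All 8 luminal prostate markers were detected, with summed levels of 2463 to 3589 CPM with PXN siRNA and 3525 to 6642 CPM with non-specific siRNA. Summed levels of 3 basal markers (0.0523 to 0.332 CPM with PXN siRNA, 0.0874 to 0.567 CPM with non-specific siRNA) and of 2 leukocyte markers (0.0273 to 0.218 CPM with PXN siRNA, 0.0541 to 0.173 CPM with non-specific siRNA) were near 0, with no marker at 0 in all 12 libraries. The 5 fibroblast or smooth muscle markers summed to 43.8 to 52.2 CPM with PXN siRNA and 30.0 to 40.5 CPM with non-specific siRNA, and the 2 endothelial markers to 14.8 to 22.1 CPM with PXN siRNA and 12.8 to 18.9 CPM with non-specific siRNA. Their part in the results was not tested.

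Mitochondrial RNA took a larger share of the counts after PXN siRNA. The share was 8.22, 8.48 and 8.55% in the PXN siRNA libraries with DHT, 8.22, 8.95 and 8.13% in those with vehicle, 5.61, 6.56 and 5.17% in the non-specific siRNA libraries with DHT and 4.69, 7.55 and 4.92% in those with vehicle. The 6 PXN siRNA libraries all lay above the 6 non-specific ones, and the closest of the non-specific ones was replicate 2 with vehicle. Group means were 8.42 ± 0.174% with PXN siRNA and DHT, 8.43 ± 0.447% with PXN siRNA and vehicle, 5.78 ± 0.714% with non-specific siRNA and DHT and 5.72 ± 1.59% with non-specific siRNA and vehicle (SD, n = 3 each). Wilson 95% intervals were at most 0.00936 points either side, covering counting error only, so the differences between replicates are far larger than counting error. The share is a sum over members chosen with results known and was given no p-value.

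**Figure D1:**
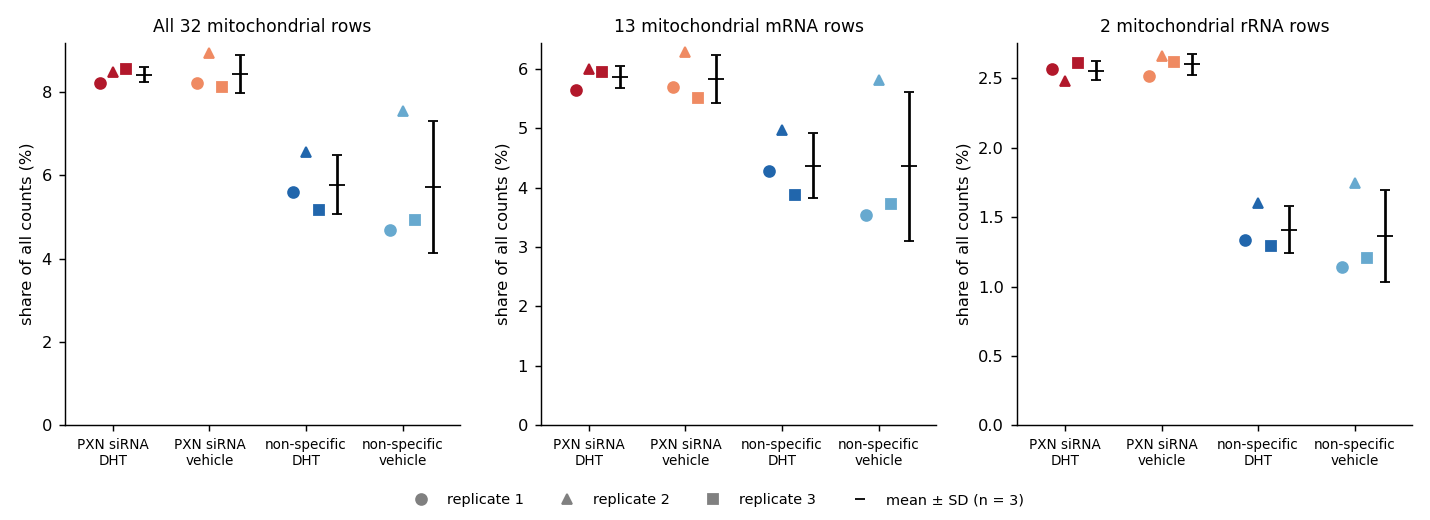
Share of all counts (%) held by the 32 mitochondrial genes (left), the 13 mRNAs (middle) and the 2 rRNAs (right) in each library, by group; points are libraries (shape = replicate) and bars are mean ± SD (n = 3). The rRNA shares of PXN siRNA libraries (2.48 to 2.66%) lie above all those of non-specific siRNA (1.14 to 1.74%), while the mRNA shares (5.51 to 6.28% and 3.54 to 5.80%) overlap.

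The rRNAs and mRNAs contributed unequally. The 2 rRNAs made up 2.48 to 2.66% of all counts with PXN siRNA and 1.14 to 1.74% with non-specific siRNA. The 13 mRNAs made up 5.51 to 6.28% with PXN siRNA and 3.54 to 5.80% with non-specific siRNA. The rRNA ranges were apart, and the mRNA ranges overlapped through replicate 2 of non-specific siRNA with vehicle. The 17 tRNAs summed to 1134 to 1455 counts per library with PXN siRNA and 899 to 1269 with non-specific siRNA, at most 0.0552% of mitochondrial counts.

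Replicate 2 of non-specific siRNA stood apart from its partners. With vehicle, its 13 mRNA levels were 1.44 to 1.74 times the mean of replicates 1 and 3, and its 2 rRNA levels 1.49 and 1.54 times. With DHT the same ratios were 1.14 to 1.31 for the mRNAs and 1.20 and 1.22 for the rRNAs. The median coefficient of variation of the 13 mRNAs was 5.35% with PXN siRNA and DHT, 9.73% with PXN siRNA and vehicle, 12.6% with non-specific siRNA and DHT, and 29.5% with non-specific siRNA and vehicle. The mRNA levels therefore spread most in the group that holds this library.

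Both mitochondrial rRNAs rose with PXN siRNA under either treatment. MT-RNR2 (chrM:1671-3229), the rRNA of the large mitochondrial ribosomal subunit, had 22366, 21674 and 22582 CPM with PXN siRNA and DHT, against 12829.5, 15351 and 12403 CPM with non-specific siRNA and DHT. With vehicle it had 21919.5, 23910.5 and 22812 CPM in PXN siRNA libraries, against 10854, 16552 and 11297 CPM in non-specific ones. No non-specific library reached the lowest PXN siRNA library. The log2 fold change was 0.72 ± 0.14 (SE) under DHT and 0.83 ± 0.14 under vehicle, with adjusted p = 5.65e-04 and 1.88e-04 (edgeR quasi-likelihood test with Benjamini-Hochberg adjustment over all genes, 18468 tested).

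MT-RNR1 (chrM:648-1601), the small-subunit rRNA, moved by a similar factor from a lower level. It had 2039, 2151 and 2191 CPM with PXN siRNA and DHT, against 1289.5, 1487 and 1195 CPM with non-specific siRNA and DHT. With vehicle the values were 1992, 2219 and 2118 CPM in PXN siRNA libraries and 1067, 1654 and 1086 CPM in non-specific ones, again without overlap. Its log2 fold changes were 0.68 ± 0.14 under DHT and 0.73 ± 0.14 under vehicle, with adjusted p = 7.64e-04 and 4.81e-04 in the same edgeR test. The 2 rRNAs kept their calls in all 12 fits that each left out 1 library.

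How many members passed the test varied with the fit and with single libraries. Under DHT 5 of 20 members were called higher and 0 lower, against 51.8% of all genes called (25% higher). Under vehicle 7 of 20 were called higher and 0 lower, against 50.2% of all genes called (23.9% higher). Averaged over both treatments, 14 of 20 were called higher and 0 lower, against 63.9% of all genes (32.1% higher). The member counts in single treatments lie near or only a little above the share of all genes called higher. They lie below the share called in either direction. The members' median log2 fold change was 0.29 under DHT and 0.32 under vehicle, beside 0.03 and 0.02 over all genes tested. With replicate number as a block the vehicle count was 16 of 20, beside 57.5% of all genes. Without the block, the vehicle count of 7 rose to 18 when replicate 2 of non-specific siRNA with vehicle was left out. It fell to 3 without replicate 1 or replicate 3 of that group and to 4 without replicate 2 of PXN siRNA with vehicle. Under DHT the count was 2 without replicate 1 of non-specific siRNA with DHT, 3 without replicate 3 of that group or without replicate 2 or 3 of PXN siRNA with DHT, and 11 without replicate 2 of non-specific siRNA with vehicle. Over the 12 fits that each left out 1 library, all genes called numbered 8276 to 9890 under DHT and 7796 to 9431 under vehicle.

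**Figure D2:**
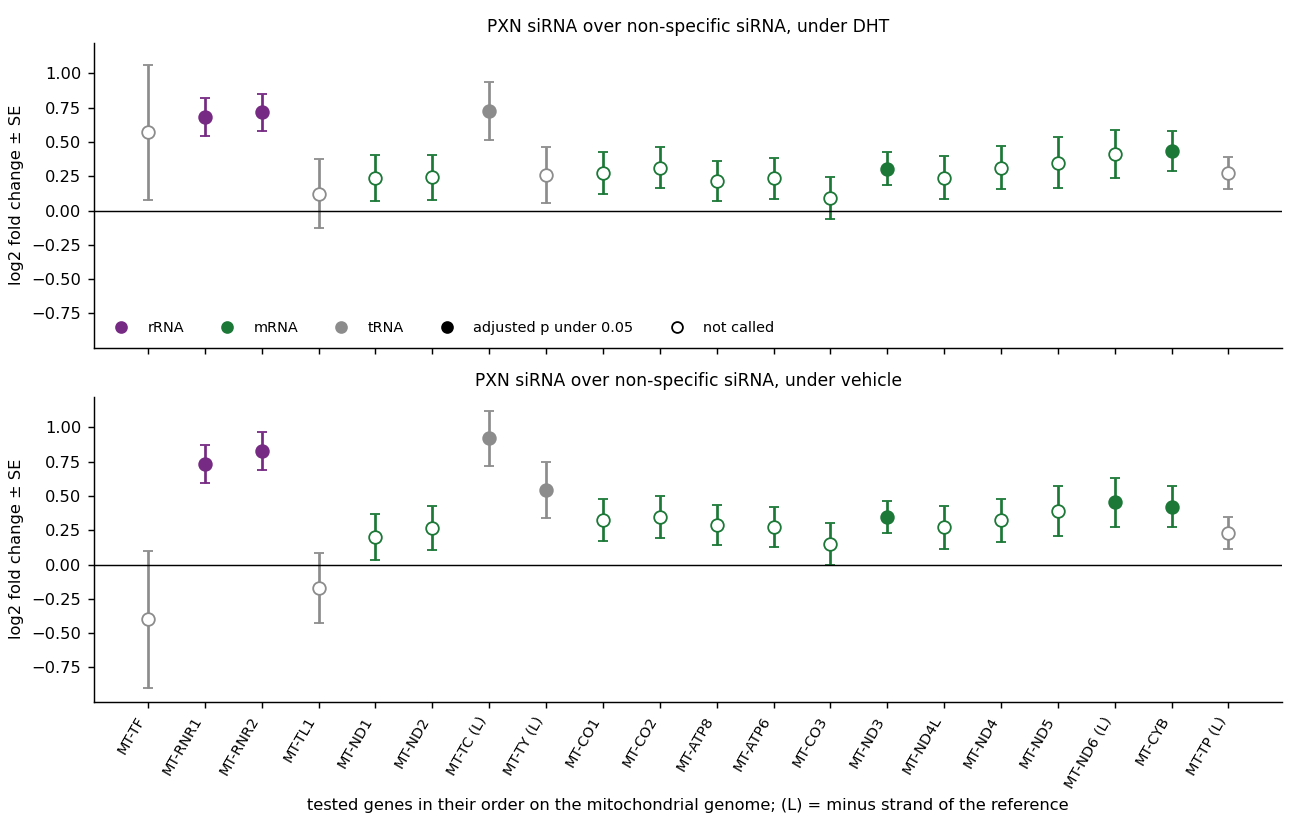
Log2 fold change (± SE) of PXN siRNA over non-specific siRNA for the 20 tested members in genome order, under DHT (top) and vehicle (bottom); filled points have adjusted p under 0.05 and (L) marks genes on the minus strand. MT-RNR1, MT-RNR2 and MT-TC sit highest among called genes, at 0.68 to 0.92 log2 units, and the 13 mRNAs lie between 0.09 and 0.45.

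Among the mRNAs, MT-CYB (chrM:14747-15887), which encodes cytochrome b of complex III, and MT-ND3, a complex I subunit, were called under both treatments. MT-CYB had 4945, 5204 and 5274 CPM with PXN siRNA and DHT, against 3801, 4245 and 3374 CPM with non-specific siRNA and DHT. With vehicle it had 4894, 5308 and 4725 CPM in PXN siRNA libraries, against 3079, 4932 and 3124 CPM in non-specific ones. The groups were apart under DHT and overlapped under vehicle, where replicate 2 of non-specific siRNA lay above 2 of the 3 PXN siRNA libraries. Its log2 fold change was 0.43 ± 0.15 (adjusted p = 0.0233) under DHT and 0.42 ± 0.15 (adjusted p = 0.0272) under vehicle, by the edgeR test. The call was lost in 4 of 12 fits that left out 1 library under each treatment: without replicate 2 or 3 of PXN siRNA or replicate 1 or 3 of non-specific siRNA under DHT, and without replicate 1 or 2 of PXN siRNA or replicate 1 or 3 of non-specific siRNA under vehicle.

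MT-ND3 (chrM:10059-10404) behaved much like it, at a lower level. Its values were 798, 827 and 784 CPM with PXN siRNA and DHT, against 639, 709 and 600.2 CPM with non-specific siRNA and DHT. With vehicle they were 794, 918 and 819.6 CPM in PXN siRNA libraries and 573, 832 and 586 CPM in non-specific ones. The log2 fold change was 0.31 ± 0.12 under DHT and 0.35 ± 0.12 under vehicle (adjusted p = 0.0433 and 0.0254, edgeR). Under DHT the groups did not overlap, and under vehicle 1 non-specific library lay among the PXN siRNA values. Its call was lost in 7 of 12 fits that left out 1 library under DHT (any of PXN siRNA with DHT, replicate 1 or 3 of PXN siRNA with vehicle or of non-specific siRNA with DHT) and in 3 of 12 under vehicle (replicate 2 of PXN siRNA, replicate 1 or 3 of non-specific siRNA).

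MT-ND6 (chrM:14149-14673), the only mRNA on the minus strand, was called under vehicle with a log2 fold change of 0.45 ± 0.18 (adjusted p = 0.0450, edgeR). It had 862, 1013 and 856 CPM with PXN siRNA and vehicle, against 499, 924 and 572 CPM with non-specific siRNA and vehicle. Under DHT its log2 fold change was 0.41 ± 0.18 with adjusted p = 0.0638 (edgeR), so it missed the threshold although its values, 838, 954 and 919 CPM with PXN siRNA and 625, 804 and 607 CPM with non-specific siRNA, did not overlap. Its vehicle call was lost in 9 of 12 fits that left out 1 library, and kept without replicate 2 of non-specific siRNA with vehicle or replicate 1 or 2 of non-specific siRNA with DHT. All 13 mRNAs had positive estimates under both treatments at TMM scaling.

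Averaged over treatments, 9 of 13 mRNAs were called higher, and all 13 had positive estimates. Of complex I, MT-ND3, MT-ND4, MT-ND5 and MT-ND6 were called, at log2 fold changes of 0.33 ± 0.08, 0.32 ± 0.11, 0.37 ± 0.13 and 0.43 ± 0.13, while MT-ND1 (0.22 ± 0.12), MT-ND2 (0.25 ± 0.12) and MT-ND4L (0.26 ± 0.11) were not. MT-CYB of complex III was called at 0.43 ± 0.10. Of complex IV, the cytochrome c oxidase core, MT-CO1 (0.30 ± 0.11) and MT-CO2 (0.33 ± 0.11) were called and MT-CO3 (0.12 ± 0.11, adjusted p = 0.333, edgeR) was not. Both ATP synthase subunits, MT-ATP6 (0.26 ± 0.11, adjusted p = 0.0457) and MT-ATP8 (0.25 ± 0.10, adjusted p = 0.0455, edgeR), were called just under the threshold. MT-ND2 and MT-ND4L, with similar estimates, lay just above it (adjusted p = 0.0657 and 0.0533, edgeR). The call of MT-ATP6 was lost in 10 of 12 fits that left out 1 library and that of MT-ATP8 in 9. Those of MT-CO1, MT-ND4 and MT-ND5 were lost in 6, 4 and 4. Of the rRNAs, MT-RNR2 was called at 0.77 ± 0.10 (adjusted p = 7.24e-06) and MT-RNR1 at 0.71 ± 0.10 (adjusted p = 1.58e-05) by the same edgeR test. Leaving out 1 library gave 7 (without replicate 3 of non-specific siRNA with vehicle) to 18 (without replicate 2 of that group) members called, with 8 without replicate 1 of that group or replicate 2 of PXN siRNA with vehicle and 9 without replicate 3 of non-specific siRNA with DHT. The 7 members called in each of these 12 fits were MT-RNR1, MT-RNR2, MT-TC, MT-CYB, MT-ND3, MT-ND6 and MT-CO2. All genes called numbered 11188 to 12048 over the same fits.

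MT-CO2, MT-ND4 and MT-ATP6, of complexes IV, I and V, were called in the average but in neither treatment alone without the replicate block. With the block they were called under vehicle, at adjusted p = 0.00469, 0.0114 and 0.0123 (edgeR), as were MT-ND5, MT-ATP8, MT-CO1 and MT-TP (0.00282, 0.00576, 0.0112 and 0.00903). MT-CO2 had 5587, 6077 and 5932 CPM with PXN siRNA and DHT, against 4712, 5317 and 4134 CPM with non-specific siRNA and DHT. With vehicle it had 5668, 6495 and 5709 CPM in PXN siRNA libraries, against 3878, 6226 and 3929 CPM in non-specific ones. The groups were apart under DHT, and under vehicle replicate 2 of non-specific siRNA exceeded 2 of the 3 PXN siRNA libraries.

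MT-ND4 had 9880.3, 10370.2 and 10291 CPM with PXN siRNA and DHT, against 7915, 9354 and 7332 CPM with non-specific siRNA and DHT. Its vehicle values were 9888, 10851 and 9401 CPM with PXN siRNA and 6384, 10820.4 and 6899 CPM with non-specific siRNA. It overlapped in the same way as MT-CO2. MT-ATP6, the proton-channel subunit of ATP synthase, had 2899, 3259 and 3113 CPM with PXN siRNA and DHT, against 2636, 2914 and 2319 CPM with non-specific siRNA and DHT. Its vehicle values were 3011, 3546 and 2971 CPM with PXN siRNA and 2179, 3459 and 2241 CPM with non-specific siRNA, so it overlapped under both treatments.

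MT-ND5 and MT-ATP8 were likewise called without the block in the average alone. MT-ND5 had 3684, 4181 and 4075 CPM with PXN siRNA and DHT, against 2909.7, 3707 and 2749 CPM with non-specific siRNA and DHT, and 3791, 4567 and 3704 CPM with PXN siRNA and vehicle, against 2347, 4282 and 2574 CPM with non-specific siRNA and vehicle. MT-ATP8 had 334, 381 and 357 CPM with PXN siRNA and DHT, against 311, 345 and 268 CPM with non-specific siRNA and DHT, and 359, 414 and 338 CPM with PXN siRNA and vehicle, against 251, 397 and 262 CPM with non-specific siRNA and vehicle. Both overlapped under either treatment. MT-CO1, the catalytic subunit of cytochrome c oxidase, had 12228, 12427 and 12324 CPM with PXN siRNA and DHT, against 10119.7, 11468 and 8990.4 CPM with non-specific siRNA and DHT. With vehicle it had 12299, 13508 and 11647 CPM in PXN siRNA libraries, against 8200.0, 13343 and 8326 CPM in non-specific ones. MT-CO3 was the mRNA with the smallest estimate in each treatment, with 6069, 6734 and 6276 CPM in PXN siRNA and 6121, 6662 and 5089.7 CPM in non-specific libraries under DHT. Its groups overlapped under DHT and under vehicle, where it had 6121, 7302 and 5940.4 CPM with PXN siRNA and 4995, 7599 and 4825 CPM with non-specific siRNA.

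Groups that did not overlap in CPM were counted as a check that uses no test, though it rests on the TMM scaling. Under DHT 11 of 20 members had every PXN siRNA library above every non-specific one, against 29.5% of all genes. Under vehicle 3 of 20 members did, against 27.3% of all genes, and these were both rRNAs and MT-TC. Over all 12 libraries the same 3 of 20 members were apart, against 17.9% of all genes. Under vehicle and over all 12 libraries the share of members was below that of all genes.

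Per length, MT-RNR2 had the highest level of any member, at 14245 CPM per kb with PXN siRNA and DHT, 14677 with PXN siRNA and vehicle, 8677 with non-specific siRNA and DHT and 8275 with non-specific siRNA and vehicle. MT-RNR1, cut from the same precursor, had 2229.9, 2211, 1387 and 1330.2 CPM per kb in the same order of groups. Among mRNAs the range with PXN siRNA and vehicle ran from 1734 CPM per kb (MT-ND6) to 8709.6 CPM per kb (MT-CO2). The tRNAs were far lower: MT-TP had 408 CPM per kb with PXN siRNA and vehicle and 348 with non-specific siRNA and vehicle, and MT-TF the least.

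MT-ATP8 and MT-ATP6 overlap by 46 bases on the same strand, so reads inside the overlap cannot be assigned to 1 of them. Their shared stretch is printed in capitals with 20 bases on each side (chrM:8507-8592). How reads inside it were counted is not known, and whether it links the 2 genes' values was not tested. MT-ND4L and MT-ND4 share 7 bases in the same way.
MT-ATP8 and MT-ATP6: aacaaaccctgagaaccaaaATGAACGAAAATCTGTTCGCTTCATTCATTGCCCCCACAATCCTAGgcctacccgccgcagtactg

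Within the mitochondrial counts, the balance of rRNA to mRNA differed between the siRNAs. The libraries held 45.5, 41.3 and 44.0 rRNA counts per 100 mRNA counts with PXN siRNA and DHT and 44.2, 42.4 and 47.5 with PXN siRNA and vehicle. With non-specific siRNA they held 31.1, 32.3 and 33.4 under DHT and 32.3, 30.0 and 32.4 under vehicle. The lowest PXN siRNA library was above the highest non-specific one. Replicate 2 of non-specific siRNA lay between its partners under DHT, and under vehicle it was the lowest of the 12 libraries.

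MT-RNR2 alone made up 27.7 ± 1.04% of mitochondrial counts with PXN siRNA and DHT, 28.3 ± 1.11% with PXN siRNA and vehicle, 22.2 ± 0.634% with non-specific siRNA and DHT and 21.8 ± 0.733% with non-specific siRNA and vehicle (SD, n = 3 each). Between libraries of equal replicate number, the PXN siRNA share was higher by 7.08, 4.35 and 5.004 points under DHT and by 5.89, 6.27 and 7.16 points under vehicle. The mRNAs together had the reverse balance under DHT, at 68.7 to 70.7% of mitochondrial counts with PXN siRNA and 74.9 to 76.2% with non-specific siRNA. Shares of a fixed total are tied, so a larger rRNA share leaves less for the mRNAs. MT-CO3 was among the lower ones, at 7.74 to 8.26% with PXN siRNA and 9.37 to 10.3% with non-specific siRNA under DHT. Most other mRNAs were also lower under DHT without overlap, while the shares of MT-CYB, MT-ND5 and MT-ND6 overlapped. The ratio of the rRNAs to each other varied less, with 9.12 to 9.93 MT-RNR1 counts per 100 MT-RNR2 counts with PXN siRNA and 9.63 to 10.1 with non-specific siRNA under DHT. Under vehicle it was 9.09 to 9.28 with PXN siRNA and 9.62 to 9.99 with non-specific siRNA, where the ranges were apart.

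**Figure D3:**
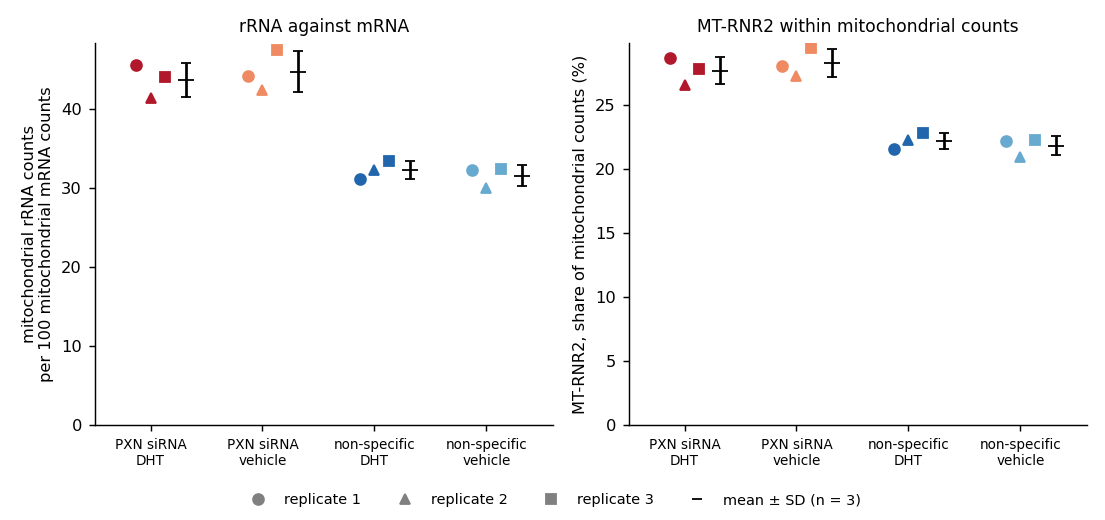
Mitochondrial rRNA counts per 100 mitochondrial mRNA counts (left) and MT-RNR2 as a share of mitochondrial counts in % (right) for each library; shapes are replicates and bars are mean ± SD (n = 3). PXN siRNA libraries lie between 41.3 and 47.5 on the left axis and non-specific siRNA libraries between 30.0 and 33.4, with no overlap.

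A fit scaled to the summed mitochondrial mRNA, added after the data were seen, tested that balance gene by gene. Averaged over treatments, MT-RNR2 was higher by 0.47 ± 0.10 log2 units (adjusted p = 2.65e-05, edgeR) and MT-RNR1 by 0.41 ± 0.12 (adjusted p = 0.00324, edgeR). MT-TC was higher by 0.51 ± 0.18 (adjusted p = 0.0110, edgeR). In single treatments MT-RNR2 was called under DHT (adjusted p = 0.00960) and vehicle (0.00215), MT-RNR1 was not called under DHT (0.0607) and was under vehicle (0.0460), and MT-TC was called in neither (0.154 and 0.0583), by the same edgeR test. This scaling sets the summed mRNAs level by construction, so calls among the 13 mRNAs cannot be read from it. It also moved the median of all genes to -0.30, and the 56.3% of all genes called at this scaling is given without being read as a background. Over every alternative run for the averaged contrast, the adjusted p ran from 3.70e-18 to 3.91e-05 for MT-RNR2, 2.04e-14 to 0.00324 for MT-RNR1 and 1.41e-06 to 0.0110 for MT-TC (edgeR, DESeq2 or limma-voom).

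Of the tRNAs, MT-TC had the largest increase among called members. It had 2.35, 2.13 and 2.46 CPM with PXN siRNA and DHT, against 1.05, 1.80 and 1.34 CPM with non-specific siRNA and DHT. With vehicle it had 2.29, 3.45 and 3.32 CPM in PXN siRNA libraries, against 1.60, 1.65 and 1.52 CPM in non-specific ones. The groups did not overlap, and the log2 fold change was 0.73 ± 0.21 under DHT and 0.92 ± 0.20 under vehicle (adjusted p = 0.00944 and 0.00159, edgeR). These values rest on 252 and 339 counts summed over 3 PXN siRNA libraries under DHT and vehicle, and on 147 and 169 in non-specific ones. The DHT call was lost without replicate 1 of non-specific siRNA with DHT.

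MT-TY, its neighbour on the same strand, was called under vehicle at 0.55 ± 0.20 (adjusted p = 0.0383, edgeR) and averaged over treatments at 0.40 ± 0.14 (adjusted p = 0.0248, edgeR). It had 2.51, 2.07 and 2.61 CPM with PXN siRNA and vehicle, against 1.19, 2.19 and 1.52 CPM with non-specific siRNA and vehicle, with overlap through replicate 2. The vehicle call was lost in 7 and the averaged call in 8 of 12 fits that left out 1 library. Under DHT it had 2.38, 2.02 and 2.21 CPM with PXN siRNA and 1.65, 1.77 and 2.11 CPM with non-specific siRNA (log2 fold change 0.26 ± 0.20). Without the block MT-TP was called averaged over treatments only, at 0.25 ± 0.08 (adjusted p = 0.0149, edgeR), and MT-TL1 (-0.02 ± 0.18) and MT-TF (0.08 ± 0.35) were not called. MT-TP had 25.1, 30.3 and 25.6 CPM with PXN siRNA and DHT, and 21.6, 24.2 and 21.2 CPM with non-specific siRNA and DHT, without overlap. With vehicle it had 23.8, 30.8 and 28.6 CPM in PXN siRNA libraries and 22.6, 27.5 and 20.8 CPM in non-specific ones, which overlapped.

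**Figure D4:**
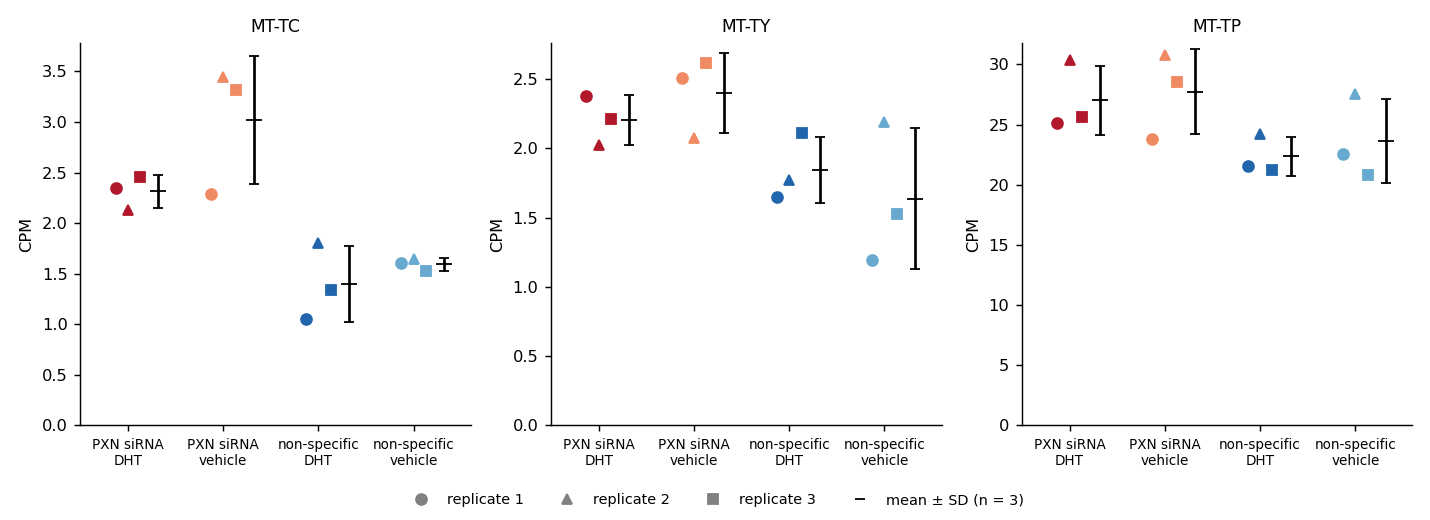
Levels in CPM of MT-TC, MT-TY and MT-TP in each library by group; shapes are replicates and bars are mean ± SD (n = 3). The 6 PXN siRNA values of MT-TC (2.13 to 3.45 CPM) lie above all 6 non-specific values (1.05 to 1.80 CPM), while those of MT-TY and MT-TP overlap.

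DHT did not move any member past the threshold. With PXN siRNA, 0 of 20 members were called, against 0.184% of all genes, and 0 had an unadjusted p under 0.05, against 7.46% of all genes (edgeR; DESeq2 and limma-voom called 0 as well). With non-specific siRNA, 0 of 20 were called, against 4.87% of all genes, and 0 had an unadjusted p under 0.05, against 16.6% of all genes (edgeR; the other tools called 0). The smallest p values were those of tRNAs, and the mRNA estimates ran from -0.07 to 0.05 log2 units with PXN siRNA and from -0.03 to 0.05 with non-specific siRNA.

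With PXN siRNA the members of lowest p were MT-TC (-0.38 ± 0.19, adjusted p = 0.737), MT-TF (0.60 ± 0.49) and MT-TL1 (0.30 ± 0.25), by the edgeR test. With non-specific siRNA they were MT-TC (-0.19 ± 0.22, adjusted p = 0.756), MT-TY (0.16 ± 0.21) and MT-TF (-0.37 ± 0.50). MT-RNR2 changed by -0.04 ± 0.14 with PXN siRNA and 0.07 ± 0.14 with non-specific siRNA, and MT-CYB by 0.05 ± 0.15 and 0.04 ± 0.15. These estimates were within 1 SE of 0 for both genes. The standard errors of the 13 mRNAs were 0.12 to 0.18 in both DHT contrasts and 0.08 to 0.11 with the replicate block. With the block 0 members were called in either contrast, while all genes called numbered 346 with PXN siRNA and 2236 with non-specific siRNA, beside 34 and 900 without it.

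The test of the interaction, whether PXN siRNA acted differently with DHT than with vehicle, called 0 of 20 members, and 0% of all genes. By edgeR 0 members had an unadjusted p under 0.05, against 4.21% of all genes, and DESeq2 and limma-voom called 0. The lowest p was that of MT-TF (0.97 ± 0.70), a gene with 3 to 16 counts per library, and the next were those of MT-TY (-0.29 ± 0.29) and MT-TL1 (0.29 ± 0.36). For MT-RNR2 the estimate was -0.11 ± 0.19 and for MT-RNR1 -0.05 ± 0.19. Effects called in 1 treatment and not in the other, such as those of MT-ND6 and MT-TY, were therefore not shown to differ.

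Nuclear genes that act on mitochondrial DNA and RNA mostly ran the other way after PXN siRNA. The following counts are averaged over treatments, beside 31.7% of all genes called lower and 32.1% higher. Of 9 genes for mitochondrial transcription, 6 were lower and 2 higher. That balance depended on the scaling: with library totals 4 were lower and 2 higher, and under DHT alone 6 were lower and 1 higher with TMM, while 2 were lower and 2 higher with upper-quartile scaling or library totals. TFAM, which packages the genome and starts transcription, fell by 0.47 ± 0.05 log2 units (adjusted p = 1.68e-06), and MTERF2, a member of the mitochondrial termination factor family, rose by 0.84 ± 0.05 (adjusted p = 6.33e-09), both by edgeR. The third by p was MTERF3 (-0.35 ± 0.05).

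Of 14 genes for replication and nucleotide supply, 9 were lower and 1 higher, led by the helicase gene C10orf2, also named TWNK (-0.76 ± 0.07), RNASEH1 (-0.52 ± 0.06) and MGME1 (-0.37 ± 0.04). Of 29 genes for mitochondrial RNA processing and stability, 22 were lower and 1 higher. LRPPRC, which stabilises mitochondrial mRNAs, fell to 161 CPM with PXN siRNA and DHT, against 247 CPM with non-specific siRNA and DHT, and to 172 CPM with PXN siRNA and vehicle, against 264 CPM with non-specific siRNA and vehicle. Its log2 fold change was -0.62 ± 0.05 (adjusted p = 6.03e-08, edgeR), beside -0.68 ± 0.05 for TBRG4, an RNA-binding protein of the FASTK family, and -0.51 ± 0.05 for TRMU, a mitochondrial tRNA-modifying enzyme. Of 16 translation factors 8 were lower and 0 higher, led by MTIF2 (-0.38 ± 0.04), MRRF (-0.44 ± 0.06) and TSFM (-0.33 ± 0.04).

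The mitochondrial ribosome showed opposite signs for its rRNAs and for the mRNAs of its proteins. Of 82 genes for mitochondrial ribosomal proteins, 73 were lower and 0 higher, with a median log2 fold change of -0.38 beside 0.03 over all genes tested. MRPS27 fell by 1.21 ± 0.06 (adjusted p = 1.22e-09), MRPL3 by 0.93 ± 0.06 and MRPS12 by 0.89 ± 0.05 in the edgeR test. Both rRNAs of that ribosome were higher, as given above. Of 10 regulators of mitochondrial biogenesis 3 were lower and 3 higher, led by PPRC1, a coactivator of the PGC-1 family (-0.72 ± 0.07), with NFE2L2 (0.26 ± 0.05) and PPARGC1B (-0.39 ± 0.09). With library totals the averaged counts became 5 lower and 1 higher for replication, 19 and 2 for RNA processing, 5 and 3 for translation factors, 66 and 1 for ribosomal proteins and 2 and 4 for the biogenesis regulators.

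Opposite signs were also seen in the respiratory complexes that combine subunits from both genomes, with fewer stable calls on the mitochondrial side. Of 73 nuclear subunits of complexes I, III, IV and V, 60 were lower and 2 higher averaged over treatments, while of the 13 mitochondrially encoded subunits 9 were higher and 0 lower. The lower ones were 28 of 37 in complex I (NDUFS3 -0.54 ± 0.04, NDUFA2 -0.56 ± 0.05) and 8 of 9 in complex III (UQCRC2 -0.67 ± 0.06, UQCRFS1 -0.46 ± 0.04, CYC1 -0.57 ± 0.06). They were 9 of 11 in complex IV (COX6C -1.09 ± 0.06, COX6B1 -0.27 ± 0.04, COX7B -0.29 ± 0.05) and 15 of 16 in complex V (ATP5G3 -0.54 ± 0.04, ATP5G1 -1.13 ± 0.10, ATP5C1 -0.47 ± 0.05). Complex II, which is encoded in the nucleus alone, had 4 of 4 lower (SDHB -0.47 ± 0.04, SDHC -0.31 ± 0.04, SDHD -0.23 ± 0.04). Under upper-quartile scaling the 73 subunits split into 44 lower and 5 higher, and with library totals into 40 lower and 6 higher, so the balance kept its direction. In single treatments 51 (DHT) and 56 (vehicle) of them were lower, beside 4939 and 4853 of 18468 genes. Of the 13 mitochondrial mRNAs 2 and 3 were called higher there, beside 25% and 23.9% of all genes. The averaged calls of MT-ATP6, MT-ATP8, MT-CO1, MT-ND4 and MT-ND5 were lost in 4 to 10 of 12 fits that left out 1 library.

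**Figure D5:**
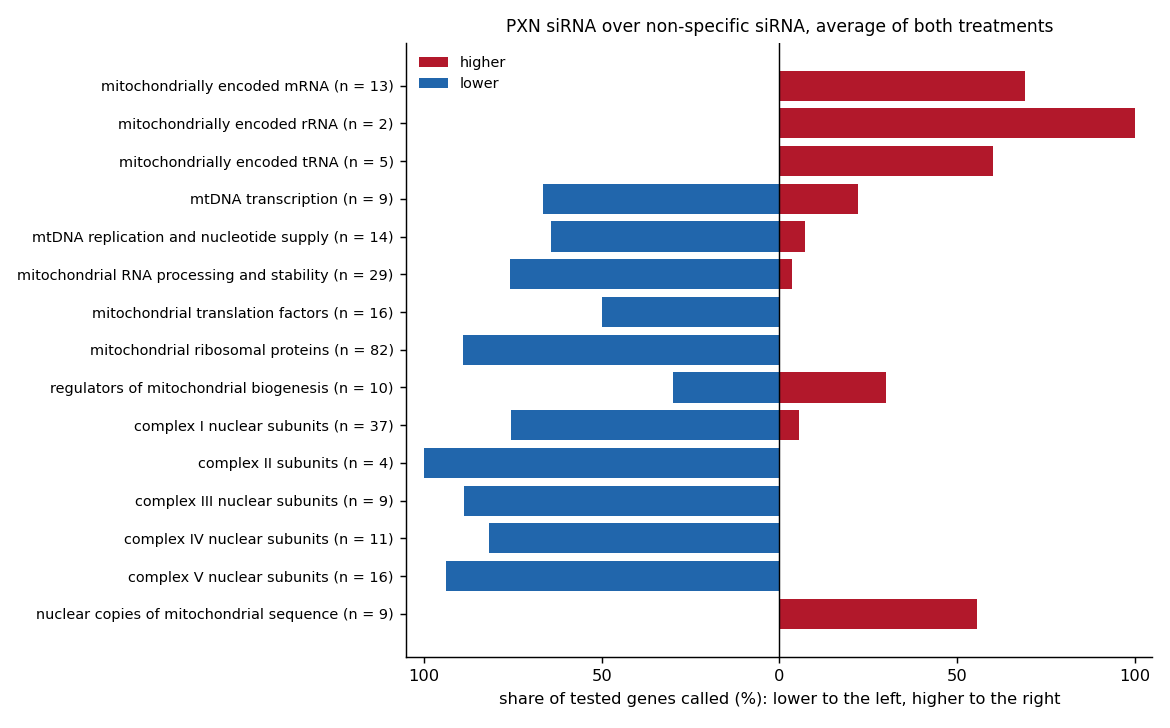
Share of tested genes called higher (right) or lower (left) with PXN siRNA than with non-specific siRNA, averaged over treatments, for the mitochondrially encoded classes and each nuclear list (n = genes tested; edgeR, adjusted p under 0.05). All called members in the mitochondrially encoded classes are higher, while 73 of 82 genes for mitochondrial ribosomal proteins are lower.

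DHT moved few genes of these lists past the threshold. None of the 34 genes called in all with PXN siRNA belonged to them, and with non-specific siRNA 4 of the 236 list genes were called by edgeR, beside 4.87% of all genes: MTERF2 (-0.32 ± 0.08), REXO2, an oligoribonuclease (-0.41 ± 0.09) and NDUFB4 (-0.35 ± 0.09) were lower, and MRPS18A (0.46 ± 0.11) was higher with DHT. The lists held 0 calls without replicate 2 or 3 of non-specific siRNA with DHT or without replicate 1 or 3 of non-specific siRNA with vehicle, and 6 without replicate 1 of non-specific siRNA with DHT. Fitting only the groups compared also left 0 calls, and DESeq2 size factors left 3, with none in complex I. With the replicate block the lists held 5 calls with PXN siRNA and 13 with non-specific siRNA, of 236 list genes. All genes called with the block numbered 346 and 2236 of 18468.

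Nuclear copies of mitochondrial sequence can share reads with the members. The table held 76 such symbols, with 0.0360 to 0.0622% of all counts per library, and 9 passed the filter. MTATP6P1 (chr1:633696-634376 on GRCh38) matched MT-ATP6 at 98.5% of aligned bases, with 10 mismatches. A 90-base window of both is printed to show how little separates them, chosen because no other window holds more differences. Its 4 differing bases are in capitals (MT-ATP6 at chrM:8629-8718, MTATP6P1 at chr1:633798-633887).
MT-ATP6: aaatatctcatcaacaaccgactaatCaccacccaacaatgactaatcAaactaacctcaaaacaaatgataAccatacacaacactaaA
MTATP6P1: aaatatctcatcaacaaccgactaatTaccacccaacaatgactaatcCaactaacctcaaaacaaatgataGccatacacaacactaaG

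MTATP6P1 counts were 12.9 to 13.3% of those of MT-ATP6 with PXN siRNA and 13.04 to 13.6% with non-specific siRNA. MTND2P28, 98.4% identical to MT-ND2, stood at 3.48 to 3.75% of it with PXN siRNA and 3.45 to 3.70% with non-specific siRNA. Both ratios overlapped between the siRNAs, and neither copy was called averaged over treatments (MTATP6P1 0.23 ± 0.10, MTND2P28 0.27 ± 0.12). Of the 9 tested copies 5 were higher and 0 lower in that average, beside 32.1% of all genes called higher and 31.7% lower. They were led by MTND4P20 (1.20 ± 0.12, adjusted p = 6.69e-07, edgeR), which is 70.6% identical to MT-ND4. MTRNR2L12, 95.04% identical to MT-RNR2, rose by 1.13 ± 0.17 averaged over treatments. Its levels with vehicle alone were 0.829 CPM with PXN siRNA and 0.445 CPM with non-specific siRNA. Its counts were 0.00229 to 0.00477% of MT-RNR2 counts over all libraries. Values of MT-ATP6, MT-ND2 and these copies are uncertain to the extent that reads were divided between them.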

How the data were processed

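RNA-seq counts per gene were deposited for 12 LNCaP libraries as 1 table of whole numbers. Per the labels' protocols, RNA was isolated with a Qiagen RNeasy Plus Mini kit and libraries were made with Illumina TruSeq Stranded mRNA. Per the submitters' processing notes, Trimmomatic 0.32, STAR 2.4.2a, Subread 1.5.0p3 with featureCounts and GRCh38 were used. The annotation, the strand setting and how reads with several matches were treated were not given in the sources read.

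The counts were tested with edgeR 4.0.16 (R 4.3.3): filterByExpr, TMM scaling, 4 group means over all 12 libraries in 1 fit and the two-sided quasi-likelihood test, with Benjamini-Hochberg adjustment over 18468 genes and calls at adjusted p under 0.05. The fit was first tested on simulated data with far fewer changed genes than were called between the siRNAs. That test therefore does not cover the choice of scaling. CPM are counts scaled to a TMM-adjusted library total of 1000000. Alternatives used DESeq2 1.42.0, limma 3.58.1, other scalings and filters, a replicate block and single libraries left out. Shares have Wilson 95% intervals and no test. The figures were drawn with matplotlib 3.10.9.

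Named with test values were the called members of each contrast, or where none was called the 3 with the smallest p, and up to 3 genes of smallest p per nuclear list, of which 1 is not reported here. Members and lists were chosen with earlier results of these data known. C10orf2 is listed under its older symbol. Same-numbered libraries deviated together in the vehicle contrast (correlations over genes of 0.121 to 0.210 across 3 pairs), while the labels do not say what the numbers mark, so the blocked value is given beside that contrast. The numbers also passed for DHT with non-specific siRNA (0.145 to 0.383) and with PXN siRNA (0.100 to 0.307), and did not for PXN siRNA under DHT (0.0769 to 0.284). No 2 libraries of a group agreed within counting noise.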

Additional observations from a re-analysis of the deposited data

How the results depend on the processing

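Every member called under PXN siRNA at TMM scaling was called higher, and 0 members were called lower in the 3 PXN contrasts under any alternative run. Members called under DHT (5) numbered 9 with upper-quartile scaling, 15 with library totals, 9 with no filter, 14 with only the groups compared, 16 with the replicate block, 1 scaled to mitochondrial mRNA, 16 without both replicate 2 libraries of non-specific siRNA, 3 at adjusted p under 0.01 and 2 to 11 with 1 library left out. Members called under vehicle (7) numbered 13, 15, 11, 4, 16, 2, 18 and 3 under the same settings in that order and 3 to 18 with 1 library left out. Members called on average (14) numbered 17 with upper-quartile scaling, 18 with library totals, 17 with no filter and 17 with the replicate block. Without both replicate 2 libraries of non-specific siRNA they numbered 18. They numbered 3 scaled to mitochondrial mRNA, 6 at adjusted p under 0.01 and 7 to 18 with 1 library left out. All genes called with 1 library left out numbered 8276 to 9890 under DHT, 7796 to 9431 under vehicle and 11188 to 12048 on average. With the block they numbered 10869 under DHT, 10628 under vehicle and 12749 on average, beside 9561, 9276 and 11793 without it. The all-gene counts of the other settings are not given here, so these member counts are not read as a result about the members. The settings scaled to mitochondrial mRNA and without both replicate 2 libraries were chosen after the data were seen, and the cause of these shifts was not tested.

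Scaled to mitochondrial mRNA, the averaged changes of MT-ATP6, MT-ATP8 and MT-TP were -0.042, -0.047 and -0.064, and the median of all genes was -0.30. Upper-quartile scaling moved the median of all genes from 0.02 to 0.12 under vehicle and from 0.03 to 0.13 under DHT, and member changes were larger with it. Of all calls under vehicle, 60.2% were higher with it and 61.9% with library totals, against 47.7% with TMM, and under DHT 60.7% and 65.7%, against 48.3%. On average they were 61.8% and 64.7%, against 50.3%.

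For DHT with non-specific siRNA and 1 library left out, MT-TY ranged from -0.0098 (without replicate 1 of non-specific siRNA with vehicle) to 0.43 and MT-TF from -0.75 to 0.15 (without replicate 2 of that group), and 0 members were called in any DHT or interaction fit, the replicate block included. With 1 library left out, all genes called there numbered 416 (without replicate 3 of non-specific siRNA with DHT) to 1361 (without replicate 1 of that group), and with PXN siRNA 10 (without replicate 3 of PXN siRNA with vehicle) to 80. For the interaction they numbered 0 to 45. The difference in mitochondrial share over all members was 2.64 points under DHT, 2.71 under vehicle and 2.67 on average. Counted over mRNAs alone it was 1.49 points under DHT, 1.47 under vehicle and 1.48 on average. With all members over TMM-scaled totals it was 1.93 under DHT, 2.16 under vehicle and 2.04 on average. The interaction of the share over all members ranged from -0.99 (without replicate 2 of non-specific siRNA with vehicle) to 0.44 with 1 library left out. MT-TF had 3 to 16 counts per library.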
